A study of Arabidopsis thaliana with 12 samples.

Results

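Dihydroxyacid dehydratase of Arabidopsis thaliana, the product of AT3G23940, is described here over 6 arrays of the psao mutant and 6 arrays of the wild type (WT). The gene was found through the platform annotation, in which 1 probe is paired with AT3G23940 and with no other gene, so that it is 1 of the 691 genes that have a probe of their own. No probe paired with several genes includes it. The gene was selected on its measured values, namely its intensity and its rank on these same psao and WT arrays. Both genotypes are of ecotype Columbia 0, and the mutant is without PSI-O, a protein of photosystem I that sits in the thylakoid membrane. The measured molecule was total RNA, and the labels give neither tissue, age, growth nor the allele of psao. Nothing says that the arrays hold RNA of different plants, and p-values therefore cover array-to-array spread alone, which can be technical. No single-gene probe was paired with PSAO, and the mutant label was not checked by its transcript.

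Dihydroxyacid dehydratase removes water from dihydroxy acids and so makes the keto acids from which isoleucine and valine are formed. The keto acid on the valine side is also the starting point of leucine. The enzyme works in the plastid, carries an iron-sulfur cluster, and follows ketol-acid reductoisomerase in the pathway. Before that step, acetohydroxyacid synthase joins the carbon skeletons, and threonine deaminase supplies the branch to isoleucine. After the dehydratase, branched-chain aminotransferases add the amino group.

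The probe for the dehydratase was brighter on every psao array than on any WT array. Intensities as deposited are relative to the brightest probe of the same array, which stands at 100. AT3G23940 had intensities of 1.27, 1.03, 0.605, 0.530, 0.797 and 0.834 on psao arrays 1 to 6, against 0.168, 0.0570, 0.187, 0.154, 0.165 and 0.114 on WT arrays 1 to 6. The dimmest psao array, number 4, was 2.83 times as bright as the brightest WT array, number 3. The mean intensity was 0.844 ± 0.273 (SD, n = 6) in psao and 0.141 ± 0.0477 (SD, n = 6) in WT, a ratio of 5.99. Since these are the values it was chosen by, its difference between the genotypes is described here without a test. In total RNA, a change in the share of cells that express a gene and a change in RNA per cell cannot be told apart.

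**Figure D1:**
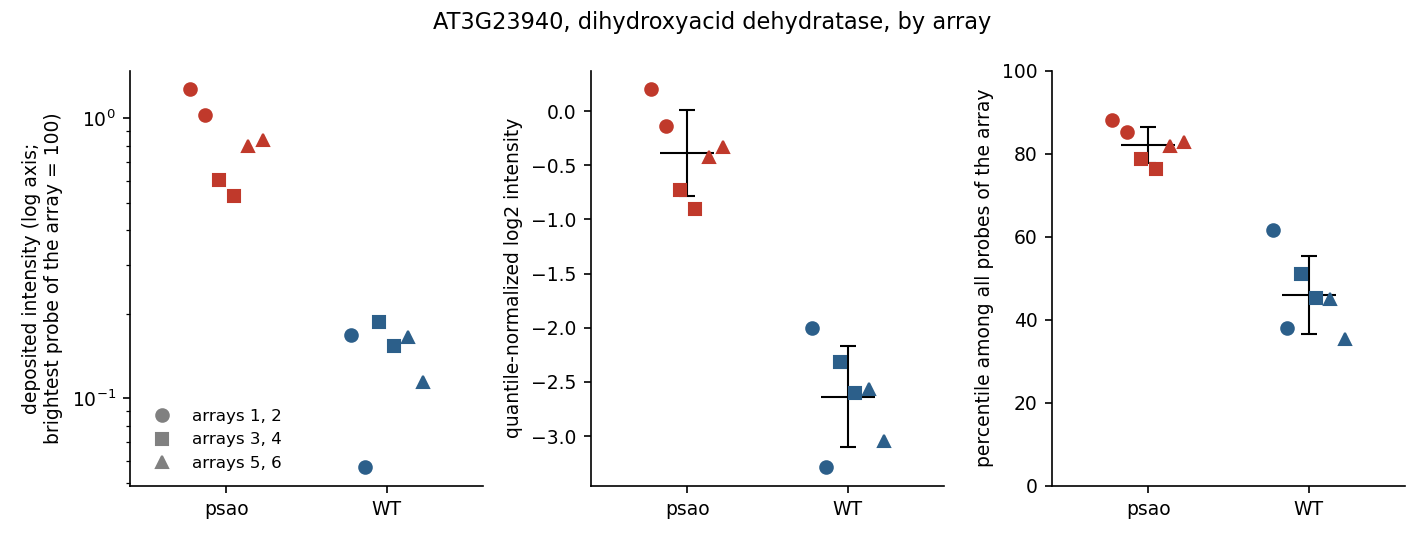
AT3G23940 on each array, as deposited intensity on a log axis (left), quantile-normalized log2 intensity (middle) and percentile among the 3439 probes of its own array (right). Each point is 1 array, symbols mark the array numbers (circles 1 and 2, squares 3 and 4, triangles 5 and 6), and the bar with whiskers is the mean ± SD of 6 arrays (not drawn on the log axis). All 6 psao arrays lie above all 6 WT arrays in each panel.

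Placed within its own array, the probe stood near the middle in WT and well above it in psao. Its percentile among all 3439 probes, where 100 is the brightest, was 88.0, 85.3, 78.6, 76.2, 81.8 and 82.9 on psao arrays 1 to 6. On WT arrays 1 to 6 it was 61.5, 38.0, 50.9, 45.2, 45.1 and 35.4. Counted from the brightest probe, it held places 413 to 818 in psao and places 1324 to 2223 in WT. The mean percentile was 82.1 ± 4.30 (SD, n = 6) in psao and 46.0 ± 9.41 (SD, n = 6) in WT, 36.1 points apart. This measure does not depend on how arrays are scaled to each other. It ranks the brightness of probes, which also depends on the probe itself, and is not an order of transcript abundance. Set against the median probe of the array, the intensity was 2.67 to 4.68 times that median on psao arrays and 0.587 to 1.69 times on WT arrays.

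Arrays differed in their median intensity before scaling, from 0.198 to 0.273 in psao and from 0.0970 to 0.195 in WT. They were therefore set to a common distribution of log2 values (quantile normalization). On that scale, the level of AT3G23940 was 0.20, -0.14, -0.73, -0.91, -0.42 and -0.33 log2 units on psao arrays 1 to 6. On WT arrays 1 to 6 it was -2.01, -3.28, -2.32, -2.60, -2.57 and -3.05. The mean was -0.39 ± 0.40 (SD, n = 6) in psao and -2.64 ± 0.47 (SD, n = 6) in WT, and the difference was 2.25 ± 0.26 log2 units (SE of the limma fit), or 4.76-fold. The groups did not overlap, but the step between the lowest psao and the highest WT array was slightly smaller than the range among the psao arrays, 1.11 log2 units, and that among the WT arrays, 1.28.

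Many other probes also differed, which sets the background for this gene. Of 3187 probes tested with limma, 29.8% passed an adjusted p of 0.05, 472 of them (14.8%) higher and 477 (15.0%) lower in psao. That fit counts each array as separate. With arrays 1 and 2, 3 and 4, and 5 and 6 of each genotype, which resembled each other, as a random block, 330 probes (10.4%) passed, and with each such couple averaged, 57 (1.79%). With values as deposited, 763 were called higher and 223 lower. In 325 probes (10.2%) every psao array with a signal lay above every WT array with one, and in 303 (9.51%) below. Zeros were left out of these counts. AT3G23940, with a signal on all 12 arrays, was among the 325. By size, 63 of the 3187 probes, the dehydratase included, rose in psao by 2.25 or more, and so did 13 of the 628 tested probes with 1 gene. Falls of that size were not counted here. By percentile within the array, 30 probes moved upward as far or farther. The spread of AT3G23940 within the genotypes, 0.43 log2 units, was below the median of all probes, 0.56, and 34.5% of probes had a smaller one. These probes were of every level and were not matched to that of the gene. A larger rise together with a smaller spread was seen in 7 probes.

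**Figure D2:**
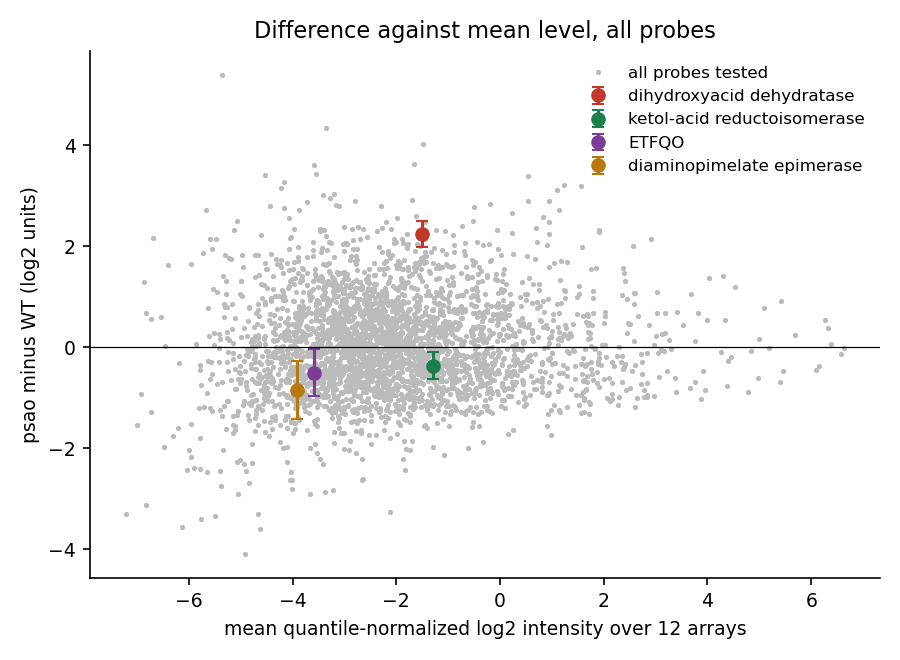
Difference between psao and WT (log2 units) against the mean quantile-normalized log2 intensity over 12 arrays, with 1 grey point for each of 3187 probes. Coloured points with SE bars are dihydroxyacid dehydratase at 2.25, ketol-acid reductoisomerase at -0.37, ETFQO at -0.50 and diaminopimelate epimerase at -0.85. The dehydratase lies near the upper edge of the cloud and the other 3 lie within it.

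Within a genotype, the arrays resembled each other in couples of consecutive numbers (1 with 2, 3 with 4, 5 with 6), which the labels do not name. The correlation within couples that limma estimated, as a consensus over all probes, was 0.701. As an r over probes, a different measure, the likeness of the arrays of a couple ran from 0.285 to 0.471. In psao the dehydratase followed them closely, highest on arrays 1 and 2, lowest on 3 and 4, and between these on 5 and 6. The deposited median intensities of the psao arrays lay in the same order, and their part in the order of the gene was not tested. The 2 arrays of a psao couple differed by 0.34, 0.18 and 0.09 log2 units for this gene, in the order of the couples. In WT they differed by 1.28, 0.28 and 0.48. The gap of 1.28, between WT arrays 1 and 2, was larger than the median gap of all probes in that couple, 0.35, and 14.9% of probes had a larger one. These were also the WT arrays with the lowest medians and the most zeros, 14.5% and 15.1% of their probes.

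Taken couple by couple, psao exceeded WT each time, which follows from every psao array lying above every WT array. Only the sizes of these differences are therefore informative. The difference was 2.68 log2 units for the couple of arrays 1 and 2, 1.64 for that of 3 and 4, and 2.43 for that of 5 and 6. Between arrays of the same number it ran from 1.59 for number 3 to 3.15 for number 2. In values as deposited the couples differed by 3.54, 1.74 and 2.57, in the same order. The log2 medians of the arrays themselves were higher in psao by 1.14, 0.12 and 0.33. In arrays 3 and 4, where these medians were nearly level, the gene differed by 1.64 after scaling and by 1.74 before it. The smallest and the largest of the couple differences were thus about 1 log2 unit apart, and their order followed that of the differences in array medians, whose part in this was not tested. From arrays 3 to 6 only, the difference was 2.03 ± 0.20 (SE). Without WT array 2, the lowest after scaling, it was 2.08.

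The difference also kept its direction in the other settings tried, which groups without overlap largely fixed in advance. Over 22 alternatives it ranged from 2.03 to 2.62 log2 units. The highest, farther from 2.25 than the SE of 0.26, came from values as deposited, in which the median of all probes was itself shifted by 0.43 toward psao. The estimate was the same, 2.25, when the 2 arrays of each couple were averaged, but its SE was then 0.33, and with couples as a random block it was 0.46.

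**Figure D3:**
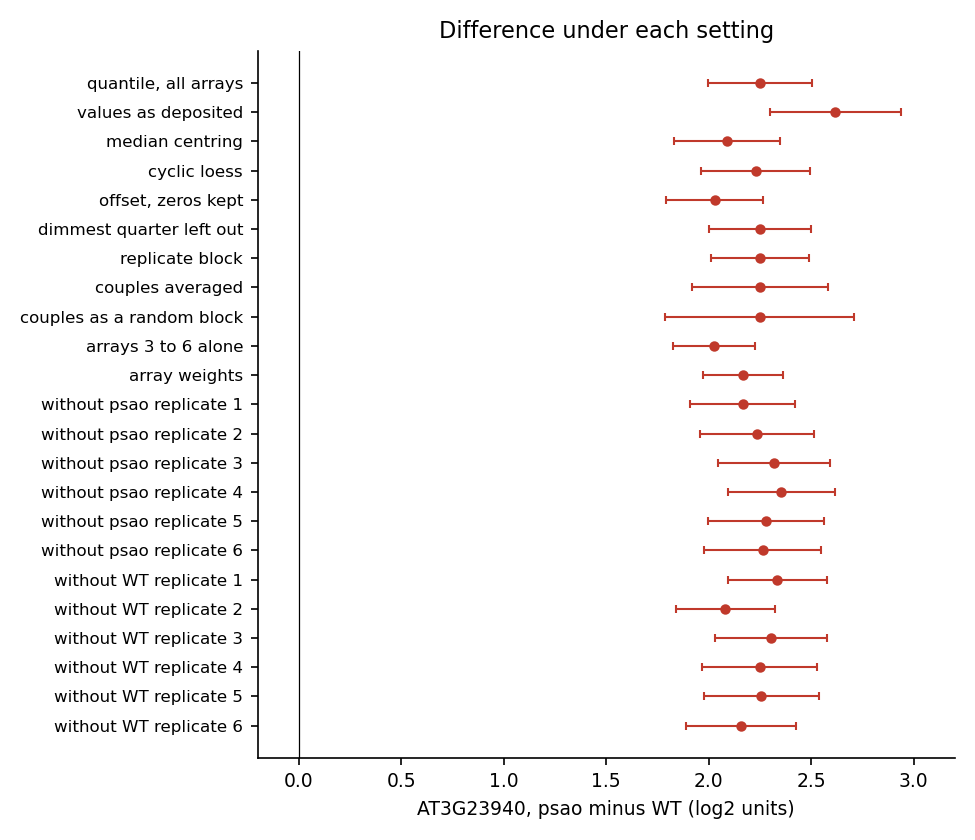
Difference of AT3G23940 between psao and WT (log2 units) under each setting, with SE bars from the limma fit. Couples join consecutive arrays of a genotype (1 with 2, 3 with 4, 5 with 6), and the replicate block is the array number. All points lie between 2.03 and 2.62.

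Of the other genes of isoleucine, valine and leucine synthesis, 1 of 23 listed had a probe of its own. It was AT3G58610, ketol-acid reductoisomerase, the enzyme that makes the substrate of the dehydratase. Its deposited intensities were 0.298, 0.347, 0.440, 0.585, 0.478 and 0.401 on psao arrays 1 to 6, against 0.418, 0.581, 0.377, 0.386, 0.413 and 0.408 on WT arrays 1 to 6. The groups overlapped, and the means were 0.425 ± 0.102 (SD, n = 6) in psao and 0.430 ± 0.0755 (SD, n = 6) in WT. On the quantile scale its level was -1.48 ± 0.55 (SD, n = 6) in psao and -1.11 ± 0.36 (SD, n = 6) in WT. The difference of -0.37 ± 0.27 (SE) did not pass the limma test (adjusted p = 0.319), with a 95% interval from -0.95 to 0.22. That interval, like those of the other tested genes, counts each array as separate. With couples as a random block the SE was 0.33.

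The couples of arrays did not give the reductoisomerase 1 direction. Its difference was -1.44 for arrays 1 and 2, 0.40 for 3 and 4, and -0.06 for 5 and 6. Leaving out arrays 1 and 2 of both genotypes gave 0.17, which again did not pass (limma adjusted p = 0.430, and 0.161 to 0.904 over all 23 alternatives). The dehydratase, by contrast, differed by 2.68, 1.64 and 2.43 in the same couples. The difference between the changes of the 2 genes was not tested, because the dehydratase was chosen with its values known.

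The ratio of the 2 probes within an array is free of any scaling between arrays, and only its change between genotypes can be read. The log2 ratio of dehydratase to reductoisomerase, from deposited intensities, was 2.09, 1.56, 0.46, -0.14, 0.74 and 1.06 on psao arrays 1 to 6. On WT arrays 1 to 6 it was -1.31, -3.35, -1.01, -1.33, -1.32 and -1.84. The groups did not overlap, and the mean was 0.96 ± 0.80 (SD, n = 6) in psao and -1.69 ± 0.85 (SD, n = 6) in WT, 2.66 log2 units apart. The ratio contains the values by which the dehydratase was chosen, so its separation is not separate support and was not tested.

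**Figure D4:**
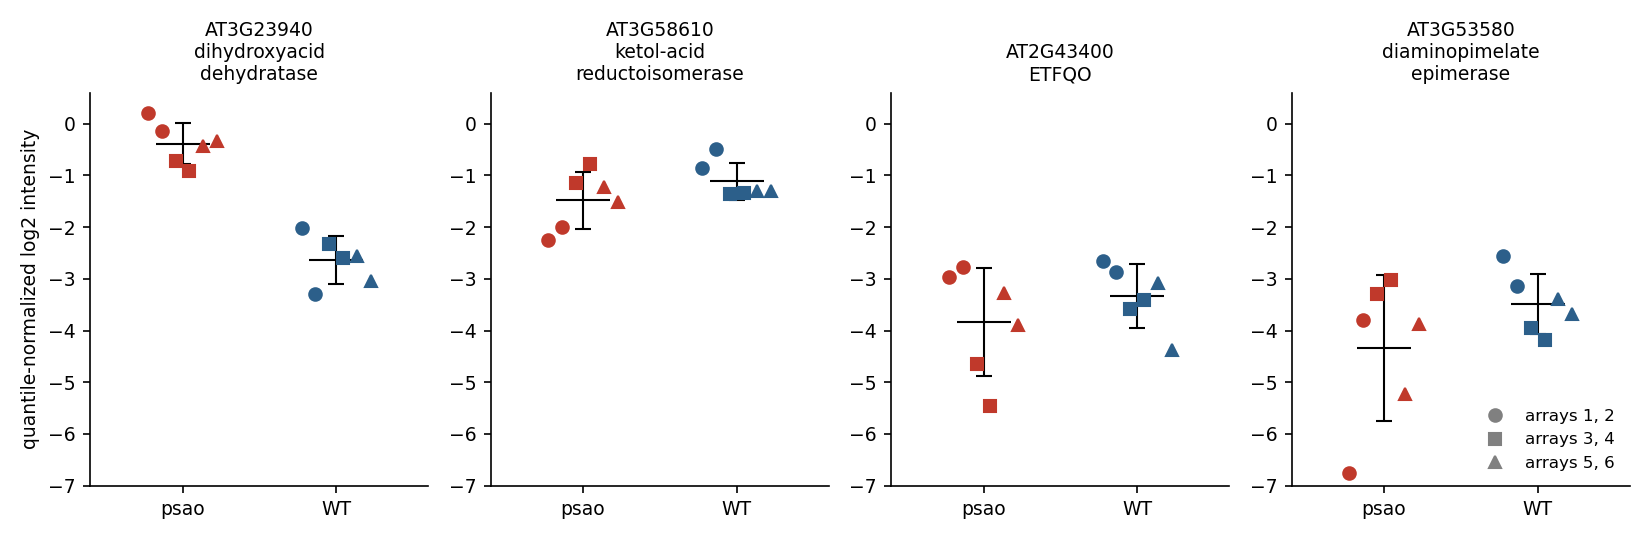
Quantile-normalized log2 intensity of dihydroxyacid dehydratase, ketol-acid reductoisomerase, ETFQO and diaminopimelate epimerase on each array, with circles for arrays 1 and 2, squares for 3 and 4, triangles for 5 and 6, and mean ± SD of 6 arrays. The dehydratase is the gene of the 4 in which the psao and WT arrays do not overlap.

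In the breakdown of branched-chain amino acids, 1 of 14 listed genes had a probe of its own. This was ETFQO (AT2G43400), the mitochondrial oxidoreductase that passes electrons from such breakdown to ubiquinone. Its quantile-normalized level was -2.96, -2.77, -4.65, -5.46, -3.28 and -3.89 on psao arrays 1 to 6, against -2.66, -2.87, -3.58, -3.41, -3.08 and -4.38 on WT arrays 1 to 6. The groups overlapped, with psao arrays 3 and 4 below all WT arrays. The difference was -0.50 ± 0.46 log2 units (SE, limma adjusted p = 0.423), with a 95% interval from -1.50 to 0.50, and 0.17 with values as deposited. With couples as a random block the SE for ETFQO was 0.64. Across synthesis and breakdown, limma thus called 0 of 2 tested genes at an adjusted p of 0.05, and 0 had an unadjusted p under 0.05, against 29.8% of all probes called, or 10.4% with couples as a random block and 1.79% with couples averaged. Their median difference, the midpoint of only 2 uncalled genes, was -0.44 log2 units, where that of all 3187 probes was -0.04. With values as deposited these medians were 0.07 and 0.43.

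Of other amino acid routes, lysine synthesis had 1 of 9 listed genes with its own probe. It was AT3G53580, diaminopimelate epimerase, which acts late in the lysine pathway. Its level was -4.33 ± 1.41 (SD, n = 6) in psao and -3.48 ± 0.59 (SD, n = 6) in WT, a difference of -0.85 ± 0.57 (SE) that did not pass (limma adjusted p = 0.280, 95% interval from -2.09 to 0.39). With couples as a random block the SE was 1.03. The psao arrays spread widely, with array 1 at -6.76, and the groups overlapped. Without psao replicate 1 the difference was -0.36, and with arrays 3 to 6 alone -0.05. No listed gene of plastid iron-sulfur assembly, the aspartate family, aromatic amino acids or nitrogen assimilation had a probe of its own, nor had any of the 10 tissue markers. Of all listed genes, 8 lay on probes paired with several genes, which were not read for single genes. They were 4 of lysine synthesis, 2 of aromatic amino acids, 1 of branched-chain breakdown and 1 tissue marker. Hence the tissue and its cell types were not checked by markers here.

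Genes whose levels ran most alike with the dehydratase were sought among 480 single-gene probes with a signal on all 12 arrays. Because the gene differs so much between genotypes, likeness over all arrays mostly picks genes that do so too, and 5% of the 480 had a Pearson r above 0.851. The 5 highest were AT1G74070 (r = 0.975), AT4G24930 (r = 0.934), AT3G57440 (r = 0.933), AT1G27610 (r = 0.927) and AT5G48830 (r = 0.927). AT1G74070 was higher in psao by 1.35 log2 units, less than the dehydratase, and the other 4 by 1.57 to 2.34. AT1G74070 also tracked the dehydratase within the genotypes, with an r of 0.754 between deviations from the group means, and AT3G57440 did so least of the 5, with 0.263. The 5 genes that ran most opposite were AT1G03810 (r = -0.976), AT4G02040 (r = -0.959), CUTA (r = -0.956), AT4G14050 (r = -0.949) and AT1G04420 (r = -0.947). They were lower in psao by between 1.86-fold for CUTA and 2.77-fold for AT4G02040. These 12 arrays share couples, so r describes them and carries no p.

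Likeness within the genotypes picked other genes. By deviations from the group means, the 5 highest were AT5G53080 (r = 0.875), AT2G19870 (r = 0.829), AT4G01310 (r = 0.827), AT1G73740 (r = 0.781) and Z-ISO (r = 0.773), the 15-cis-zeta-carotene isomerase of carotenoid synthesis. Of the 480 genes, 5% had an r above 0.559. None of these 5 was among the 5 most alike over all arrays. Their differences between psao and WT ran from -0.37 for Z-ISO to 0.88 for AT2G19870, against 2.25 for the dehydratase. Their r over all arrays, which includes the difference between genotypes, ran from -0.0273 for Z-ISO to 0.788 for AT1G73740. The probe of AT5G53080 was dim, with percentiles from 7.15 on WT array 6 to 29.0 on WT array 1. In AT2G19870, AT4G01310 and AT1G73740 the lowest WT array was number 2, as for the dehydratase, and in AT5G53080 and Z-ISO it was number 6. In all 5 genes, arrays 1 and 2 were the highest psao arrays, again as for the dehydratase. Arrays 3 and 4 were the lowest psao arrays in AT5G53080, AT2G19870 and AT1G73740. The part of the couples in these r was not tested. How this list depends on the processing was not tested.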

How the data were processed

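The deposited values are 1 intensity for each of 3439 probes on each of 12 arrays, never negative and with exact zeros. Each array was scaled by the authors so that its brightest probe is 100, as read from the values. Labelling, array type, background treatment and earlier steps are not given in the sources used here, and depth cannot be read from such values. Precision is limited by the number of arrays, and further by their likeness in couples. Groups and array numbers come from the sample titles.

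The annotation pairs 692 probes with 1 gene and 870 with several, and 1877 probes are not listed. Of the 692, 690 matched RefSeq's TAIR10.1 gene table. Genome positions and the protein sequence are not used here. Names of enzymes that the table leaves unnamed follow general knowledge of Arabidopsis.

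Zeros were treated as missing, and the other values were taken to log2 and quantile normalized (limma 3.58.1, R 4.3.3). A probe needed 4 values in each group, which left 3187. Then psao and WT were compared with lmFit and eBayes, two-sided, with Benjamini-Hochberg adjustment over all these probes and a threshold of 0.05. The fit was tested on simulated data with known changes. The gene, the 9 lists with 108 loci and the tests were chosen with earlier results of these data known. Named were AT3G23940, each measured gene of branched-chain amino acid synthesis and breakdown, from other lists up to 3 called members or else the member with the lowest p, and 5 genes for each measure of likeness.

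Deviations of same-numbered psao and WT arrays correlated over probes, with r from 0.144 to 0.239 in the 6 pairs, so a replicate block by array number was fitted as an alternative. The main fit, with its SE, p-values and calls, does not pair the arrays. Alternatives changed the scaling, zeros, dim probes, weights, threshold, replicate block, couples and the arrays included.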

Additional observations from a re-analysis of the deposited data

Results flagged for a closer look

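In AT1G74070, the gene most like the dehydratase over all arrays, the level on WT replicate 2 was -1.07 log2 units, well under those of the other 5 WT arrays, the closest of which had -0.78. In AT1G73740 the same array had -2.95, and the closest of the others -1.93. WT replicate 2 was also the lowest WT array for AT3G23940, at -3.28, with the next at -3.05. Both flagged genes were named because their levels ran like those of AT3G23940, so the shared low array is not a separate observation. In all, 38 sets of values were examined for a far sample, and chance alone picks about 1 in 20. A cause was not tested.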

How the results depend on the processing

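The difference of AT3G23940 stayed between 2.03 and 2.62 log2 units over 22 alternatives, and between 2.08 and 2.35 when each array was left out in turn. With the replicate block it was 2.25 ± 0.24 (SE), and the block changed no call among the listed genes. Its percentile difference ranged from 34.0 to 40.1 points over 15 alternatives. The count of all probes called was 949, and 788 to 939 with an array left out. It was 1090 with the replicate block, 330 with couples as a random block, 57 with couples averaged, which leaves 3 values against 3, and 466 at an adjusted p of 0.01. With values as deposited, 77.4% of the 986 called probes were higher in psao, against 49.7% after quantile normalization. Ketol-acid reductoisomerase, AT3G58610, turned to 0.17 with arrays 3 to 6 alone, and ETFQO turned to 0.17 with values as deposited. The cause was not tested. Both, and AT3G53580, remained uncalled in every alternative in which they were fitted. With dim probes left out, ETFQO and AT3G53580 were not fitted. Of the 5 genes most like the dehydratase, 4 were again among the highest 5 with values as deposited, 2 with Spearman's rho and 0 with arrays 3 to 6 alone. The r of the 5 with arrays 3 to 6 alone was 0.923 to 0.979, so that other genes ranked above them although their own r stayed high. Of the 5 most opposite genes, AT1G04420 had an r of -0.579 with values as deposited, and the rest had -0.880 to -0.968.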
